A study of Mus musculus with 12 samples.

Results

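The genes described here belong to innate sensing and interferon induction, the set of receptors, adaptors and signalling proteins by which cells recognise microbial products and misplaced nucleic acids. They were taken from the peak table by its own pathway annotation: named genes under the KEGG terms for Toll-like receptor signalling, RIG-I-like receptor signalling or cytosolic DNA sensing. Of the 92 genes with such a term, 15 that also stood under the ErbB, insulin or cell cycle terms and 2 with Ddx or Dhx names were left out. This gave 75 genes with 122 peaks, of 10277 named genes with 17503 peaks in all. A further 20 genes known to act in the pathway had peaks but none of the 3 terms in the table's annotation, among them Tlr4, Fadd and Ifnar1, and they are given at the end. Others, such as Tlr9, Ifih1, Tbk1, Irak4 and Rela, had no peak analysed here.

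The data are N6-methyladenosine (m6A) profiles of C57BL/6 mouse liver by RNA immunoprecipitation and sequencing (MeRIP-seq), in which fragmented poly(A) RNA is pulled down with an anti-m6A antibody and sequenced beside the input RNA. There were 12 libraries, with 3 replicates in each of 4 groups: Mettl3-deficient m6A-tagged, Mettl3-deficient input, wild-type m6A-tagged and wild-type input. METTL3 is the catalytic subunit of the enzyme that writes m6A on mRNA. How Mettl3 was removed, in which cells, and the age and sex of the mice are not stated in the labels beyond the word postnatal in the title.

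In this system Toll-like receptors (TLRs) read microbial lipids, proteins and nucleic acids at the cell surface and in endosomes, while cytosolic sensors read RNA and DNA inside the cell. Adaptor proteins pass the signal to kinases, which switch on NF-kB and the interferon regulatory factors (IRFs), and these drive cytokine and interferon genes. In liver the hepatocytes and the resident macrophages, the Kupffer cells, both carry parts of it. m6A lies mostly near stop codons and in 3′ untranslated regions (UTRs), and the antibody also binds a related mark next to the cap at the 5′ end.

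All fold changes and false discovery rates (FDR) below are the authors' own values for single peaks, on mm10, and all counts and medians were computed from them. The table holds no value per library, so the spread between mice is unknown, no error can be put on a peak, and whether the deposited FDR takes in that spread is not known. The header does not name the numerator of the fold change. Since the design sets loss of a methyltransferase against wild type, negative probably means less m6A signal in the Mettl3-deficient mice, but the table does not settle this, and the values are only called negative and positive. A peak counts as called at a deposited FDR of 0.05 or below, and each gene is represented by its leading peak, the one with the smallest FDR. In bulk liver, fewer cells of a type and less of a mark per cell cannot be told apart.

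Most innate sensing genes carried a called peak, and negative ones were the more frequent. By leading peak 68 of the 75 were called (90.7%, against 81.1% of all named genes), 40 negative (53.3%, against 47.6%) and 28 positive (37.3%, against 33.6%). Of the called genes 58.8% were negative, close to the 58.6% over all genes, so the set as a whole does not stand out in sign. The median change was -0.62 on the log2 scale, against -0.52 over all named genes. Of the negative genes 28 of 40 reached -1 or below (70.0%, against 74.2% of all negative genes), and of the positive ones 8 of 28 reached 1 or above (28.6%, against 23.3%), so in size too the set lay near the whole table. The extremes were Tlr5 (log2 fold change -3.12 in the authors' deposited table) and Casp8, at 4.09 there but not called. The plot of leading peaks by gene gives the values by role.

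**Figure D1:**
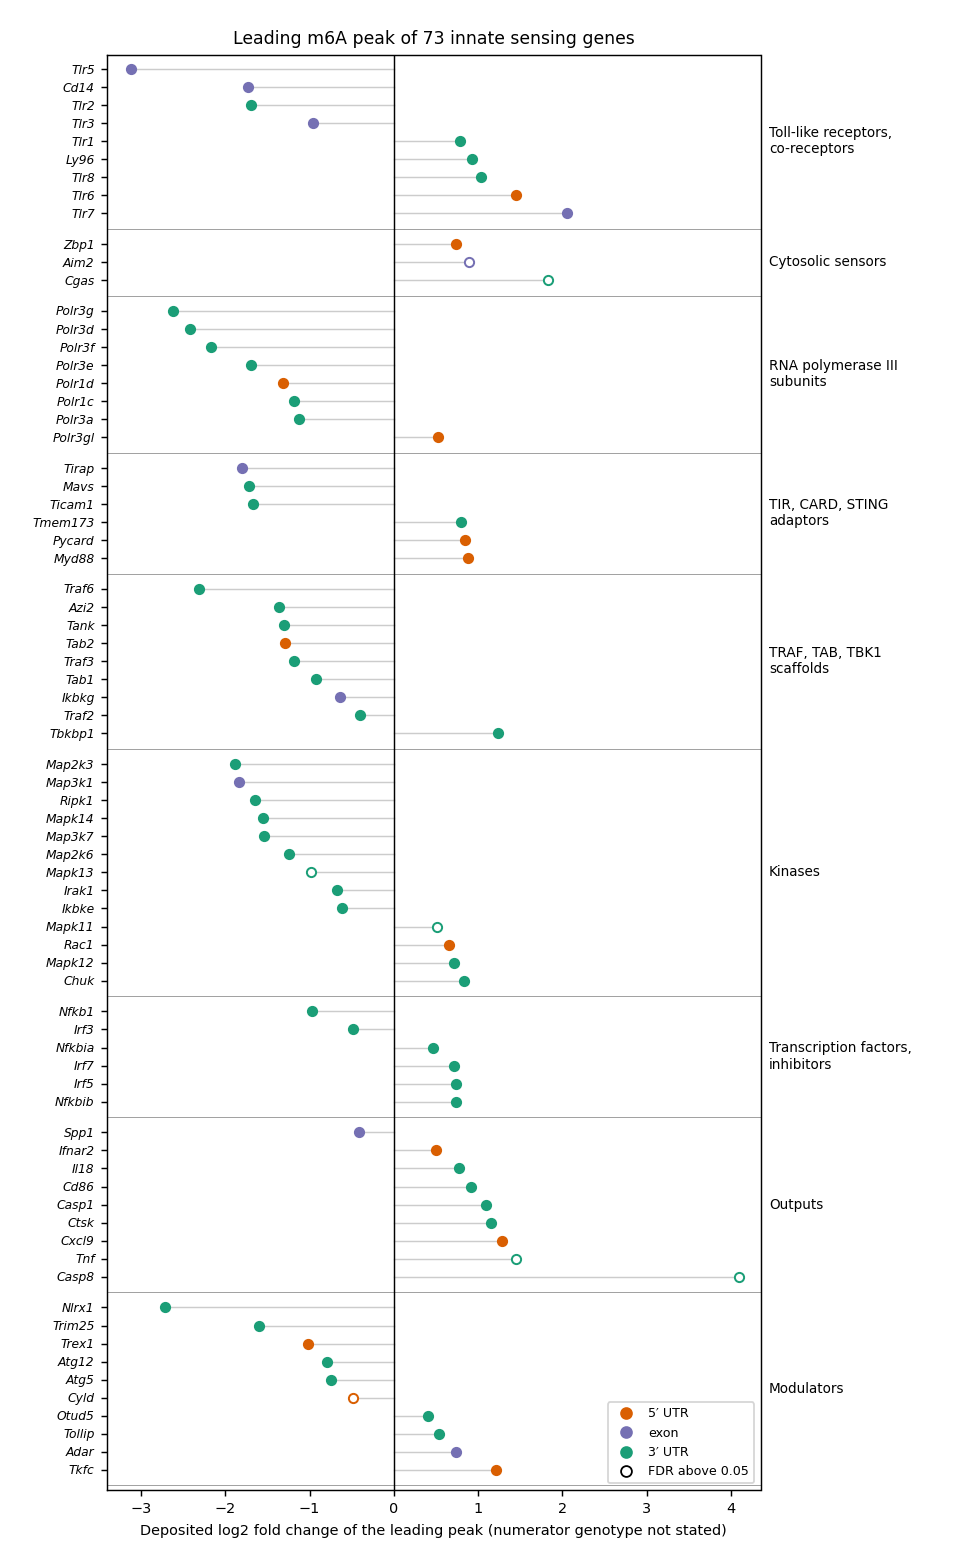
Deposited log2 fold change of the leading peak (horizontal axis) of 73 of the 75 genes, grouped by role, with 1 point per gene coloured by the annotated feature and open where the FDR was above 0.05. RNA polymerase III subunits and scaffold adaptors lie left of 0 with 1 exception each, and 8 of the 9 outputs lie right of it.

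Sensors came first in the pathway and were split by kind. Over the 21 sensor genes, 12 were negative and 7 positive, with 2 not called and a median of -1.13. That figure joins 3 unlike groups.

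Among the TLRs and their co-receptors 4 of 9 were negative and 5 positive. Tlr5, the receptor for bacterial flagellin, had the most negative leading peak of the whole set, at -3.12 with a log10 FDR of -10.9 in the authors' deposited table, a ratio of 0.115. This peak covers 182973530 to 182973799 on chromosome 1 and is annotated to the last exon. Cd14, a co-receptor that hands bacterial lipopolysaccharide on to TLR4, stood at -1.73 in its last exon (log10 FDR -28.5 in the authors' deposited table). Tlr2, the receptor for bacterial lipoproteins, stood at -1.69 in the 3′ UTR with a log10 FDR of -26.4 in the authors' deposited table. Tlr3, which binds double-stranded RNA in endosomes, was negative at each of its 3 peaks, though only the exon peak at -0.96 was called in the authors' deposited table. Across these 4 negative receptors the log10 FDR ran from -28.5 to -3.85, whereas the 5 positive ones lay near the threshold. Tlr1 and Tlr6, which pair with TLR2, had values of 0.78 and 1.45 (authors' deposited table). Tlr7 and Tlr8, endosomal receptors for single-stranded RNA that neighbour each other on the X chromosome, stood at 2.05 and 1.04 there, and Ly96, the partner protein of TLR4, at 0.93 in the authors' deposited table. Their log10 FDRs ran from -2.14 for Tlr1 to -1.48 for Tlr6 in the authors' deposited table. At an FDR of 0.01 the calls of Ly96, Tlr6, Tlr7 and Tlr8 were lost. TLR2 and its partners thus lay on opposite sides.

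Of the 3 cytosolic nucleic acid sensors in the set only Zbp1, which binds nucleic acid in the Z form, was called. It stood at 0.74 in the 5′ UTR with a log10 FDR of -5.72 in the authors' deposited table. Cgas, the DNA sensor that makes the messenger cGAMP, had a value of 1.83 in its 3′ UTR and missed the threshold (log10 FDR -0.83 in the authors' deposited table). Aim2, the DNA sensor of the inflammasome, was also not called, at 0.89 in the authors' deposited table. None of these 3 members therefore had a negative peak, but 2 of the 3 values carry little evidence.

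RNA polymerase III, which transcribes AT-rich cytosolic DNA into RNA that RIG-I then detects, had nearly uniform leading peaks. This enzyme makes tRNAs and other small RNAs in every cell, so its place in the sensing term is one of several functions. Of its 9 subunit genes 8 were negative, each at -1 or below, and 1 was positive. Polr3g led with -2.62 in the 3′ UTR (log10 FDR -9.87 in the authors' deposited table), at 81675423 to 81675810 on chromosome 13. Its paralogue Polr3gl was the exception, at 0.52 in the authors' deposited table. The Polr3gl peak is labelled 5′ UTR but runs over 15778 bp of genome, introns included, from 96578404 to 96594181 on chromosome 3, nearly the whole gene. In the authors' deposited table Polr3d stood at -2.42, Polr3f at -2.17 and Polr3e at -1.69, all in the 3′ UTR. Polr3d also held a called positive exon peak at 0.69 (authors' deposited table). Polr3a, the largest catalytic subunit, had -1.13 there. Polr1c and Polr1d, subunits shared with RNA polymerase I, had values of -1.18 and -1.32, with a log10 FDR of -236 for Polr1d (authors' deposited table). Both called UTR peaks of Polr1d were negative. Without the polymerase subunits the median of the remaining 12 sensors was 0.84. Of 4 further subunit genes with a peak but no term, 2 were negative and 2 positive.

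Of the 15 adaptor genes 11 were negative, 4 positive, and none missed the threshold. Their median was -1.19. The receptor-proximal adaptors, with TIR or CARD domains or STING, were even at 3 negative and 3 positive. Mavs, the mitochondrial adaptor of the RNA helicase sensors, stood at -1.72 in the 3′ UTR with a log10 FDR of -258 in the authors' deposited table, at 131245569 to 131246711 on chromosome 2. Ticam1, which encodes TRIF, the adaptor of TLR3 and TLR4, was negative at all 3 of its peaks, with -1.67 in the 3′ UTR, -2.01 in the last exon and -0.83 in the 5′ UTR (authors' deposited table). Tirap, which brings MyD88 to the membrane, stood at -1.80 in the authors' deposited table, from a single peak of 118 bp with a log10 FDR of -2.66. This peak is annotated to the exon of a transcript with another gene identifier, although it lies within the RefSeq span of Tirap.

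The positive adaptors of this kind were Myd88, Tmem173 and Pycard. Myd88, the common adaptor of most TLRs, was positive at each of its 3 peaks, with 0.88 and 0.93 in 2 overlapping 5′ UTR peaks and 1.22 in a 3′ UTR peak of 61 bp (authors' deposited table). The wider of its 5′ UTR peaks runs past the start of Myd88 into the neighbouring gene Acaa1a. Tmem173, which encodes STING, the receptor of cGAMP, stood at 0.80 with a log10 FDR of -3.94 in the authors' deposited table. Pycard, the inflammasome adaptor ASC, was called at 0.84 in the 5′ UTR, while its 2 peaks of higher value, 2.46 and 1.64, were not called in the authors' deposited table. So the adaptors MyD88 and TRIF, which serve the 2 arms of TLR signalling, carried peaks of opposite sign, but the arms as such did not. Tirap, which serves MyD88, was negative, and Ticam2, which serves TRIF but carries no term, was positive at 0.87 (authors' deposited table). The leading peak of Myd88, in the 5′ UTR, had a log10 FDR of -2.94 in the authors' deposited table. That of Ticam1, in the 3′ UTR, had -299 there.

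The scaffold adaptors further down were almost uniform, with 8 of 9 negative. Traf6, the ubiquitin ligase that links MyD88 and IRAK kinases to TAK1, had a single peak at -2.31 with a log10 FDR of -66.7 in the authors' deposited table, at 101694304 to 101697593 on chromosome 2. For Tab2 and Tab1, which bind TAK1, the authors' deposited table gives -1.29 and -0.92. Traf3, needed for interferon induction, stood at -1.19 in the 3′ UTR, and Azi2, a scaffold of the kinase TBK1, at -1.36 (authors' deposited table). Smaller values belonged to Ikbkg, the regulatory subunit NEMO of the IKK complex, at -0.64, with Traf2 at -0.40 (authors' deposited table). Of the 3 scaffolds of TBK1, Tank stood at -1.30 by its leading peak, beside Azi2, but Tbkbp1 was positive at 1.23, with a log10 FDR of -11.6 in the authors' deposited table.

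**Figure D2:**
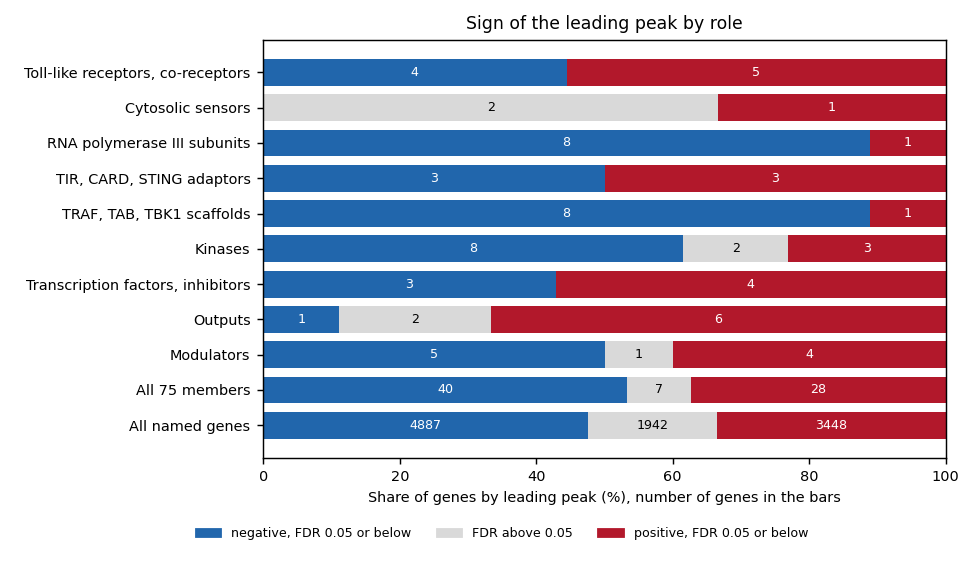
Share of genes (horizontal axis, percent) with a negative called, not called or positive called leading peak in each role, with the numbers of genes in the bars and all members and all named genes below. Polymerase subunits and scaffold adaptors are negative in 8 of 9 genes each, and outputs in 1 of 9.

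Effectors were split between the kinases and the genes that the pathway finally switches on. Over the 29 effector genes 12 were negative, 13 positive and 4 not called, with a median of 0.50.

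Of the 13 genes in the kinase list, which also holds the GTPase gene Rac1, 8 were negative, 3 positive and 2 not called. Map2k3 and Mapk14 had the strongest evidence of the set, both at the floor of the deposited FDR scale (log10 FDR -434). Map2k3, which activates p38, stood at -1.89 and Mapk14, the main p38 kinase, at -1.55, both 3′ UTR peaks (authors' deposited table). Map2k6, the other activator of p38, stood at -1.24 in the authors' deposited table, and TAK1 (Map3k7), which acts above these activators, at -1.54. Of the other p38 genes, Mapk12 was positive at 0.71, and Mapk11 (0.51) and Mapk13 (-0.98) were not called in the authors' deposited table. Ripk1, a kinase at the branch between NF-kB activation and cell death, stood at -1.65 with a log10 FDR of -239 in the authors' deposited table, and a further called peak followed it at -1. Map3k1, a kinase upstream of JNK, stood at -1.84 in an internal exon in the authors' deposited table. Of the IKK family, Ikbke was negative at -0.62 and Chuk positive at 0.83 (authors' deposited table). Irak1, a kinase that binds MyD88 complexes, stood at -0.67 by its leading peak in the authors' deposited table.

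The transcription factors and their inhibitors had small changes of both signs, none reaching 1 in size, and all 7 were called. Of the 7, 3 were negative and 4 positive. The negative ones included Nfkb1 (-0.97), which encodes the p105 precursor of NF-kB p50, and Irf3 (-0.49) in the authors' deposited table. Positive leading peaks belonged to Irf7 (0.71), Irf5 (0.74) and the NF-kB inhibitors Nfkbia (0.47) and Nfkbib (0.74) in the authors' deposited table. IRF3 is present before infection and IRF7 is itself induced by interferon, and the pair lay on opposite sides by leading peak. The evidence for both was similar, with log10 FDRs of -16.2 for Irf3 and -18.1 for Irf7 in the authors' deposited table.

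Outputs, the cytokines, receptors and executioners at the end of the pathway, were mostly positive: 6 of 9 were positive, 1 negative and 2 not called. Over all named genes 33.6% were positive by leading peak. Among the positive outputs only Il18, at -5.97, had a log10 FDR below -5. Of the 2517 called genes above -5 among all named genes, 1552 were positive. Whether the outputs differ in sign from other genes of similar evidence was not tested. Cxcl9, a chemokine induced by interferon-gamma, stood at 1.28 in the 5′ UTR (log10 FDR -4.92), Ctsk, a lysosomal protease, at 1.15 (log10 FDR -2.69) and Casp1, the inflammasome protease, at 1.09 (log10 FDR -1.65), all from the authors' deposited table. Smaller positive values were those of the co-stimulatory ligand gene Cd86 (0.92), the inflammasome cytokine gene Il18 (0.77) and the interferon receptor gene Ifnar2 (0.50) in the authors' deposited table. The 2 listed 3′ UTR peaks of Cd86 overlap and share their reads. The single negative output was Spp1, which encodes osteopontin, at -0.41 in the authors' deposited table. Tnf and Casp8 had high values, 1.45 and 4.09, but log10 FDRs of only -1.14 and -1.13 in the authors' deposited table. No output gene had a leading peak of -1 or below, whereas 3624 of all 10277 named genes had a called one. With 9 outputs this count rests on few genes.

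The modulators tune the layers above and went both ways, with 5 of 10 negative, 4 positive and 1 not called. Nlrx1, a mitochondrial protein known to restrain MAVS, stood at -2.72 in the 3′ UTR with a log10 FDR of -237 in the authors' deposited table, at 44252717 to 44253406 on chromosome 9, a ratio of 0.152. Trim25, a ubiquitin ligase that activates RIG-I, stood at -1.60 with a log10 FDR of -118 in the authors' deposited table. Mavs, Nlrx1 and Trim25, which act on the route from the RNA helicase sensors, each had a negative leading peak, with a log10 FDR of -118 or lower. They do not stand for that whole route. Over the RIG-I-like receptor term 18 called genes were negative and 9 positive. Trim25 also held a called positive 3′ UTR peak at 0.79 (authors' deposited table). Trex1, the exonuclease that clears cytosolic DNA, was negative at -1.02, with a log10 FDR of -75.1 in the authors' deposited table, in a peak over 73.6% of its RefSeq span, which a readthrough transcript with Atrip shares. Atg12 and Atg5, autophagy proteins that dampen RIG-I signalling, had values of -0.79 and -0.74 (authors' deposited table). Tkfc, a metabolic kinase that binds the sensor MDA5, was positive at 1.21 with a log10 FDR of -34.5 in the authors' deposited table, the strongest evidence for any positive peak of the set. The remaining called peaks of Tkfc overlap each other and the neighbour Cyb561a3. The values of Otud5 (0.41), Tollip (0.53) and Adar (0.74) were positive and called, and Cyld, at -0.49, was not called in the authors' deposited table. Most of the single Tollip peak, 141875172 to 141881739 on chromosome 7, lies past the end of its RefSeq gene at 141881580.

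Set side by side, 12 of 19 called sensors (63.2%, exact 95% interval 38.4 to 83.7), 11 of 15 called adaptors (73.3%, 44.9 to 92.2) and 12 of 25 called effectors (48.0%, 27.8 to 68.7) were negative. The intervals cover counting error over genes only, as if genes were independent draws. The lists were chosen with earlier results of these data known, so the intervals only show how few genes stand behind each share. They overlap widely, and a difference between the 3 layers was not tested. Over all named genes 58.6% of the called ones were negative. Most leading peaks lay in the 3′ UTR, in 52 of the 75 genes. With 3′ UTR peaks alone the shares were 9 of 12 (75.0%), 10 of 13 (76.9%) and 11 of 21 (52.4%), against 62.8% over all genes. The order of the shares changed with the settings and the lists. At an FDR of 0.01 sensors had 80.0% and adaptors 73.3%, and with peaks of at most 1000 bp sensors had 88.9% and adaptors 72.7%. For these settings the share over all genes was not computed. In the whole table the negative share of called genes was 38.3% above a log10 FDR of -5 and 78.8% at -20 or below. Without the polymerase subunits 4 of 10 called sensors were negative, below the effectors, and without the outputs the effectors had 61.1%. Within the effectors, the outputs had 1 negative gene of 7 called (14.3%, exact 95% interval 0.361 to 57.9) and the kinases 8 of 11 (72.7%, 39.0 to 94.0). By pathway term, 22 of 39 called genes of Toll-like receptor signalling were negative (56.4%), 18 of 27 of RIG-I-like receptor signalling (66.7%) and 15 of 26 of cytosolic DNA sensing (57.7%). The share over all genes was 58.6%, and these terms share genes.

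Strength of evidence and sign went together. Of the 19 innate sensing genes with a log10 FDR of -20 or below, 18 were negative (94.7%, against 78.8% of 3324 such genes in the whole table). Tkfc was the single positive one. Between -20 and -5 the negative share was 18 of 27 (66.7%, against 52.2% over all genes), and above -5, up to the threshold, 4 of 22 (18.2%, against 38.3%). All 7 calls lost at an FDR of 0.01 were positive: Adar, Casp1, Ly96, Tlr6, Tlr7, Tlr8 and Tollip. The share over all genes was not computed for this cut, but 1552 of the 2517 called genes above -5 in the whole table were positive too. Since read depth per library is not known, the part that transcript abundance has in the link of evidence and sign was not tested.

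**Figure D3:**
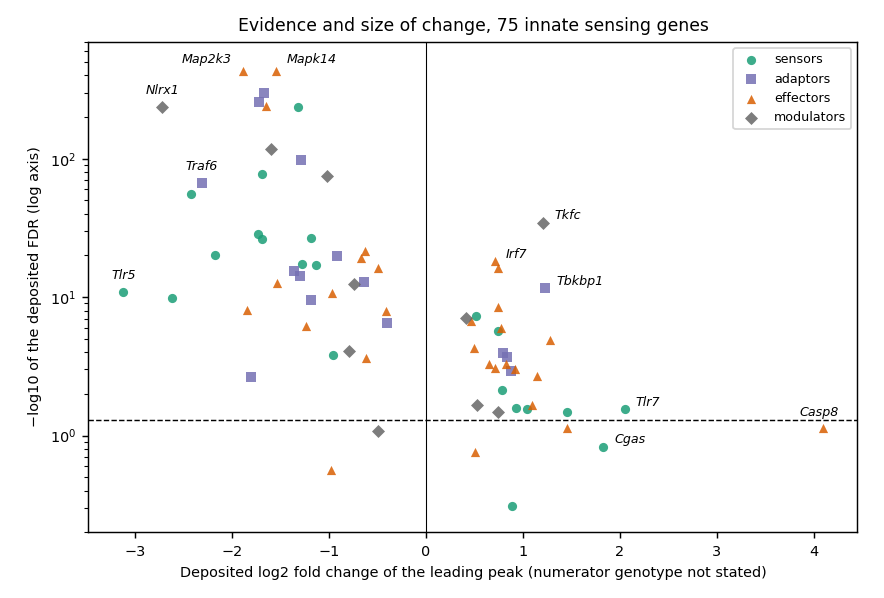
Deposited log2 fold change (horizontal axis) against the −log10 of the deposited FDR (vertical log axis) of the leading peak of the 75 genes, with symbols by layer and a dashed line at an FDR of 0.05. The upper part of the plot holds negative genes, with Map2k3 and Mapk14 at the floor of the FDR scale, and the points of high positive value, Tlr7, Cgas and Casp8, lie near or below the line.

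The sign differed with the place of a peak in the transcript. Over all 122 peaks of the set 94 were called (77.0%, against 76.2% of all peaks in the table), 48 negative (39.3%, against 40.6%) and 46 positive (37.7%, against 35.6%). In the 5′ UTR 4 of 20 called peaks were negative (20.0%, against 30.1% of all called 5′ UTR peaks), in other exons 9 of 12 (75.0%, against 61.8%) and in the 3′ UTR 35 of 62 (56.5%, against 60.4%). All 4 negative 5′ UTR peaks, of Polr1d, Tab2, Trex1 and Ticam1, were wider than 1000 bp on the genome, as were 8 of the 16 positive ones. The same shares over all 5′ UTR peaks of the table were not computed.

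Called peaks stood in both UTRs of 11 genes of the set. In 5 of them, Map2k3, Tank, Atg12, Atg5 and Irf3, the 5′ UTR peak was positive and the 3′ UTR peak negative, and in none the reverse. In the whole table the same arrangement was seen in 521 of 1475 genes, and the reverse in 86. Map2k3 showed the widest difference, with 1.02 in a 5′ UTR peak of 180 bp and -1.89 at its 3′ UTR peak (authors' deposited table). Irf3 had 0.60 at its start and -0.49 at its 3′ UTR peak (authors' deposited table). Both UTRs were positive in Myd88, Nfkbib and Tkfc and negative in Ticam1, Tab2 and Polr1d. The Tab2 peak labelled 5′ UTR is annotated to a retained-intron transcript. Its midpoint lies 76.9% along the RefSeq gene, far from the start of that gene. On the route to IRF3, Ticam1 was negative throughout, while Irf3 and Tank changed sign along the transcript.

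**Figure D4:**
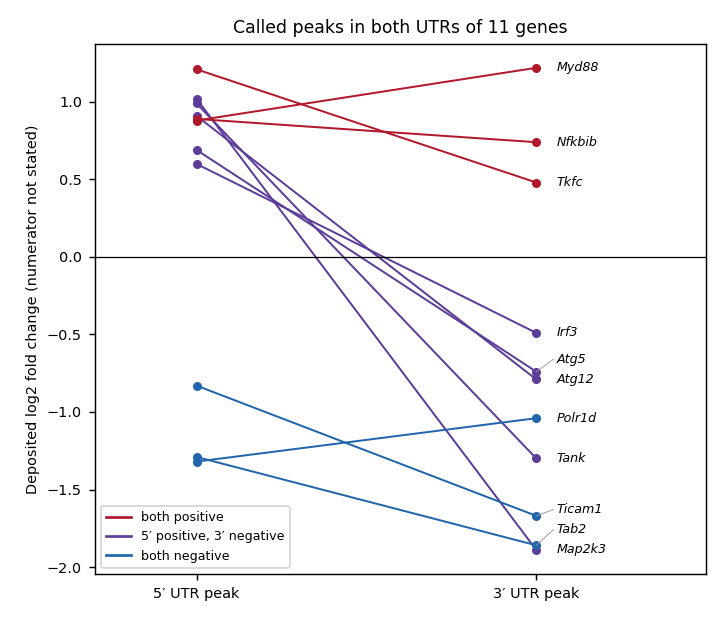
Deposited log2 fold change (vertical axis) of the leading called peak of each UTR in the 11 genes with such a peak in both, joined by a line per gene. In 5 genes the line crosses 0 downwards, and no line crosses it upwards. UTR labels are those of the deposited annotation, and the 5′ UTR peak of Tab2 lies far from the RefSeq start.

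Called 5′ UTR peaks of some genes of the set span a RefSeq transcript start, which is why the start sequences are shown. The peaks used are narrow in Map2k3 (180 bp) and Irf3 (270 bp). They are wider in Tank (1028 bp), Trex1 (1319 bp), Cxcl9 (1356 bp) and Myd88 (1581 bp, beside a narrower one of 180 bp). A wide peak does not place its signal at the start. The start used for Tank lies inside its RefSeq gene, which begins at 61578557. The 30-base windows run from 15 bases before the start to 15 bases from it on, in the direction of transcription, and the capital marks the first transcribed base. They are from RefSeq on GRCm38.p6, the same assembly as mm10, and each start lies inside a called 5′ UTR peak of the gene.
Irf3, chr7:44997633-44997662, plus strand: tcccagcatgcctgtAggcggaaggccaaa
Map2k3, chr11:60932039-60932068, plus strand: cgtccggcgctgcccAgtgtggctttggcg
Tank, chr2:61593137-61593166, plus strand: cttccggttgcagtcAttctgccgggcacc
Myd88, chr9:119340004-119340033, minus strand: aggagacttaagggaAgtaggaaactccac
Cxcl9, chr5:92328065-92328094, minus strand: aagaacatgctctctAaagacattctcgga
Trex1, chr9:109059237-109059266, minus strand: gacccaggcagttttActtcctcagccaca
The peaks of Irf3, Map2k3, Tank, Myd88 and Cxcl9 were positive, and that of Trex1 was negative. Of 19 genes of the set with a called 5′ UTR peak, 16 had a start in the RefSeq table used here. The start lay inside the peak in 8 of them, and the first base was A in 7 of these 8, the exception being Polr3gl with G. Of the 7 positive ones 6 began with A (85.7%). Over the whole table the share was 33.7% of 1064 starts inside positive called 5′ UTR peaks and 30.5% of 367 inside negative ones, and among all 32851 RefSeq starts it was 34.4%. An A next to the cap can carry the mark that the antibody also binds, but a first base in an annotation is a description of the letters and no measurement of that mark. The motif GGAC, a core of the m6A consensus, was searched on the transcribed strand in the 50 bases from the start on, and stood in 3 of the 7 positive ones (Cxcl9, Map2k3 and Myd88), against 21.4% of the 1064 starts inside positive called 5′ UTR peaks and 18.9% of all RefSeq starts.

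Within 3′ UTRs, peaks of opposite sign were ordered along the transcript. A called negative and a called positive 3′ UTR peak stood side by side in Irak1, Map3k7, Tank and Trim25, the 4 such genes with a strand in the reference used here. In all 4 the negative peak lay nearer to the transcript start and the positive one further downstream, as in 83.5% of 430 such genes of the whole table. The pairs were -0.67 and 0.48 in Irak1, with 267 bp between the peaks, -1.54 and 1.19 in Map3k7 with 836 bp, -1.30 and 1.29 in Tank with 3401 bp, and -1.60 and 0.79 in Trim25 with 3025 bp (values of the authors' deposited table). In these 4 genes the leading peak was the negative one, and so it was in all 10 genes of the set with called peaks of both signs, against 86.5% of 1278 in the whole table.

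**Figure D5:**
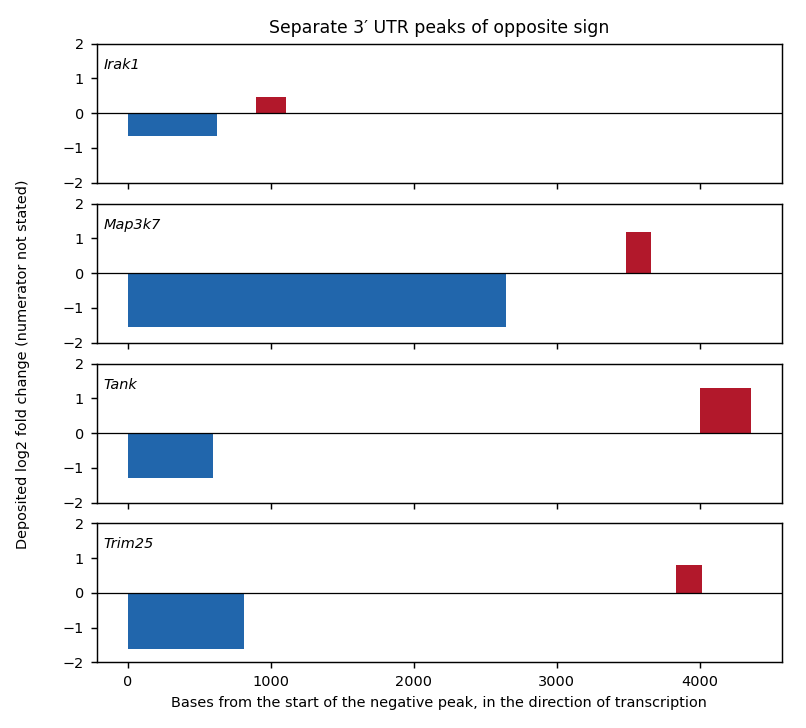
Called 3′ UTR peaks of Irak1, Map3k7, Tank and Trim25, drawn as bars from start to end at their deposited log2 fold change (vertical axis), with bases counted from the start of the negative peak in the direction of transcription (horizontal axis). In each gene the positive peak lies downstream of the negative one.

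Pathway genes that the table's annotation leaves without a term were evenly divided, with 8 negative, 8 positive and 4 not called of 20. Stat2 and Gsdmd, described further on, are among them. Over all named genes 47.6% were negative and 33.6% positive by leading peak. The 2 death-domain adaptors Fadd (-2.09) and Tradd (-2.01) and the MyD88-complex kinase gene Irak2 (-2.22) had strongly negative 3′ UTR peaks, with log10 FDRs of -144, -156 and -284 in the authors' deposited table. Tradd also held called positive peaks in its 5′ UTR and an exon. Ifnar1, the other chain of the type I interferon receptor, had a 3′ UTR peak at -1.67 with a log10 FDR of -98.6 (authors' deposited table). Its 5′ UTR peak was positive at 0.86, as was the single 5′ UTR peak of Ifnar2 at 0.50 (authors' deposited table). The Ifnar2 peak also overlaps the gene Gm36587. Ticam2, the adaptor that bridges TLR4 to TRIF, was positive at 0.87 in the authors' deposited table, in a peak labelled 5′ UTR. Tlr4, the lipopolysaccharide receptor, had 4 peaks of differing sign, none of them called, the leading one at -2.27 with a log10 FDR of -1.28 in the authors' deposited table. Polr2e (-0.90) and Polr3b (-0.35) were the negative and Polr2f (0.39) and Polr2k (0.73) the positive polymerase subunits by leading peak in the authors' deposited table. Polr2e and Polr3b also held called positive peaks, at 0.36 and 0.44 for Polr2e and 0.69 for Polr3b (authors' deposited table). Rnf125, a ligase that marks RIG-I for decay, was negative at -1.89, and Samhd1, which restricts viruses by depleting nucleotides, positive at 1.14 (authors' deposited table). With these genes added, 14 of 24 called sensors, 13 of 18 called adaptors and 15 of 30 called effectors were negative.

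Genes of the same biology outside the 3 terms carried peaks of both signs. For comparison, 47.6% of all named genes were negative and 33.6% positive by leading peak. Of 30 interferon response genes, 18 had a peak, with 6 negative, 10 positive and 2 not called, and 1 of the 18 is also a member of the set. Those with the smallest FDRs included Oasl1 at -2.11, Bst2 at 0.59, Jak1 at -0.97, Stat2 at -0.83 and Parp14 at -0.90 in the authors' deposited table. Oasl1, a repressor of Irf7 translation in mice, and the antiviral tether gene Bst2 had log10 FDRs of -227 and -186 there. JAK1, TYK2 and STAT2 transmit the interferon receptor signal, and they were not uniform: Tyk2 was positive at 0.36, and Stat2 also held a called positive 5′ UTR peak at 0.71 (authors' deposited table). Of 18 NF-kB regulators and inflammasome genes 10 had a peak, with 3 negative, 4 positive and 3 not called. The inhibitors of NF-kB signalling Tnip1 (-1.52) and Tnfaip3 (-1.10) and the NOD receptor kinase gene Ripk2 (-1.39) were negative in the authors' deposited table. Gsdmd (0.50), which encodes the pore protein of pyroptosis, Nfkb2 (0.91) and Nod1 (0.49) were positive there (authors' deposited table).

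Several receptors and outputs of the set are genes of leukocytes, so markers of these cells stand beside them. Of 14 Kupffer cell and other leukocyte markers 7 had a peak: 1 was negative, 3 positive and 3 not called, with a median of 0.58. Clec4f, Cd68, Cd5l, Vsig4, Marco, Itgam and Cd3e had no peak analysed here. Csf1r stood at -2.43, Lyz2 at 0.58 and Ptprc, the pan-leukocyte surface gene, at 0.89 in the authors' deposited table. All 5 hepatocyte markers had a called peak, 3 negative and 2 positive. Of 4 endothelial markers 3 had a peak, all called positive with a median of 0.81: Pecam1 at 0.81, Cdh5 at 0.25 and Lyve1 at 1.22 in the authors' deposited table. The part of cell composition in the positive values of outputs and receptors was not tested.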

How the data were processed

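The series was used through 1 table of the authors' own comparison of the genotypes, with 1 row per peak. The submitters' processing notes name HISAT2 2.1.0 and the build mm10. How peaks were called and filtered, whether strand was used, and how replicates entered the comparison is not stated in those notes or in the labels. The columns that the authors deposited hold, per the file headers, a log2 fold change, a log10 FDR and a p-value rounded to 2 decimals for each peak, beside start, end, width and distance from the transcript start. The deposited log2 fold change and log10 FDR are treated here as a score of each peak: in 189 of 17692 rows, all without a gene name, the final columns were out of order, and these rows were left out. Other deposited measures are distance and width, counted on the genome with introns included.

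Genes were selected by the KEGG column and sorted into role lists. The members and lists were chosen with earlier results of these data known. Every member may be named (2 are counted but not reported singly here), and up to 6 called genes by FDR of each list outside the terms. A gene's leading peak has the smallest FDR, ties going to the larger change. Shares carry exact (Clopper-Pearson) 95% intervals. No new test was run, since no values per library were used and read depth is unknown. All 75 symbols or synonyms matched RefSeq on GRCm38.p6, and 121 of 122 peaks overlapped their own gene, that of Tollip by only a small part. The leading peaks of 5 genes, Myd88, Trex1, Ifnar2, Ikbke and Mapk12, also overlapped another RefSeq gene. The selection of leading peaks was tested on simulated data. Python 3.11.15, numpy 2.4.6, pandas 2.3.3, scipy 1.17.1 and matplotlib 3.10.9 were used.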

Additional observations from a re-analysis of the deposited data

How the results depend on the processing

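The counts of negative (40) and positive (28) genes and the negative shares of called sensors, adaptors and effectors were recomputed under 7 other settings each, with 1 narrower role list per layer, and under 2 settings chosen after seeing the data, one keeping only peaks that overlap their own RefSeq gene and no other, and one adding the pathway genes without a term. Of these values 44 stayed within 1.5 times the count or within the exact interval of the share, and 4 did not: 24 negative genes and a sensor share of 88.9% with peaks of at most 1000 bp, 8 positive genes with an absolute change of at least 1, and an effector share of 14.3% for outputs alone. Wide peaks were common (39 of 75 leading peaks exceeded 1000 bp), so the first of these leaves fewer genes. The exact intervals rest on few genes and are wide, so staying within them is weak evidence that a share is stable. The sensor share without polymerase subunits and the share of the receptor-proximal adaptors alone were well below the main shares but still within. Keeping in the genes left out for their ErbB, insulin or cell cycle terms added no called sensor or adaptor, so those shares could not move. Taking the called peak with the largest change turned the sign of some genes, among them Atg12 at 0.91 and Irf3 at 0.60. Subtracting the median of all listed peaks, 0.34, changed no sign among called leading peaks. No paired analysis was possible because the table holds no values per library, and no replicate could be left out for the same reason. Depth behind each peak is unknown.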
